A study of Mus musculus with 7 samples.

Results

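The genes described here are 8 genes of membrane ion transport in the walls of small brain vessels: Kcnj8, Abcc9, Kcnj2, Kcnk3, Ano1, Cacna1c, Cacna1h and Atp2a2. They were taken by their symbols from the 32285 genes of the count tables, and all 8 were found. Their UMI counts (unique molecular identifiers, 1 for each captured transcript) were followed across pericytes, smooth muscle cells and the arterial, capillary and venous segments of the endothelium. In pericytes they were also followed by the amount of endothelial RNA in the same barcode, and in both age groups. The study captured brain microvessel cells with antibody-coated beads against CD31, an endothelial surface protein, and sequenced 7 single-cell RNA libraries. The 3 libraries of the 12 months group and the 4 libraries of the 3 months group came from untreated wild-type C57Bl6 mice. Each used 1 hemisphere without cerebellum, brain stem and olfactory bulbs, minced and digested with collagenase. CD31 marks endothelium and not mural cells, and the labels do not say how mural cells came through the capture.

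Vessel tone depends on the membrane potential of mural cells, the pericytes and smooth muscle cells that wrap the endothelium. Kcnj8 encodes Kir6.1, the pore of the vascular ATP-sensitive potassium channel (KATP), and Abcc9 encodes SUR2, the regulatory subunit that binds nucleotides and the channel's drugs; the open channel hyperpolarises the cell. Kcnj2 encodes Kir2.1, an inward rectifier through which capillary endothelium responds to extracellular potassium, and Kcnk3 encodes TASK-1, a two-pore background potassium channel. Ano1 encodes TMEM16A, a calcium-activated chloride channel whose current depolarises mural cells, Cacna1c and Cacna1h encode the pores of the L-type calcium channel Cav1.2 and the T-type channel Cav3.2, and Atp2a2 encodes SERCA2, the pump that returns calcium to the sarcoplasmic or endoplasmic reticulum.

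In the build mm10 (GRCm38), both KATP genes lie on the minus strand of chromosome 6, Kcnj8 (ENSMUSG00000030247) at 142564837 to 142571614 and Abcc9 (ENSMUSG00000030249) at 142587862 to 142702315. They are 16247 bases apart with 0 annotated genes between them. Cacna1c (ENSMUSG00000051331) lies on the same chromosome at 118587240 to 119196418. Kcnj2 (ENSMUSG00000041695) spans 111066164 to 111076821 on chromosome 11, and Ano1 (ENSMUSG00000031075) spans 144588549 to 144751974 on chromosome 7. On chromosome 5, Kcnk3 (ENSMUSG00000049265) spans 30588170 to 30625271 and Atp2a2 (ENSMUSG00000029467) spans 122453513 to 122502225. Cacna1h (ENSMUSG00000024112) lies on chromosome 17 at 25374285 to 25433783. Abcc9, Kcnk3, Ano1, Cacna1c, Cacna1h and Atp2a2 each overlap another annotated gene. The partners of Atp2a2 (Gm43359 and Gm43360 on its strand, Gm43361 opposite) are not among the counted genes. Nor are Gm18981, on the strand of Cacna1c, and Gm25905, opposite it. Among the counted partners, only Dcp1b, on the strand opposite Cacna1c, had more than 33 UMIs in a class. It had 57 in pericytes, 60 in smooth muscle, 356 in arterial and 1141 in capillary cells. The sources used here do not say whether reads were counted by strand.

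The promoter windows of Kcnj8, Abcc9 and Kcnj2 are shown because the KATP pair was higher in pericytes than in smooth muscle and capillaries and Kcnj2 differed between the endothelial classes. RefSeq windows (GRCm38.p6, 250 bases before to 50 after the start of transcription) were at hand for 5 of the 8 members, and Kcnk3, Cacna1h and Atp2a2 are named only. Capitals mark every match, on either strand, to 1 of 5 motifs: the GC box GGGCGG, the TATA box TATAAA, the RBPJ core TGGGAA of Notch signalling, the CArG box of serum response factor and the MEF2 box. Matches on the minus strand appear as the reverse complement.
Kcnj8: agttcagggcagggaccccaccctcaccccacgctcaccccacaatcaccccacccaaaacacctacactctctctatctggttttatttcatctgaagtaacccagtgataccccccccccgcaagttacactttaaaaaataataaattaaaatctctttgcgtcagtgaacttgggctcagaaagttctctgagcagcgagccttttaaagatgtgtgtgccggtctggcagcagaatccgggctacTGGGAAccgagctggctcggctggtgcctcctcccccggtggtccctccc
Abcc9: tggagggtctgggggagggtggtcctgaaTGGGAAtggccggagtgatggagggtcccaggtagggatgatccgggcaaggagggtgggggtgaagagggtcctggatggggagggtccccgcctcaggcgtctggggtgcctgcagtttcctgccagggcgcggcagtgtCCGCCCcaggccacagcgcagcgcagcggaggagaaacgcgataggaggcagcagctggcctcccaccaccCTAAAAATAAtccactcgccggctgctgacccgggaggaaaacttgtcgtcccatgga
Kcnj2: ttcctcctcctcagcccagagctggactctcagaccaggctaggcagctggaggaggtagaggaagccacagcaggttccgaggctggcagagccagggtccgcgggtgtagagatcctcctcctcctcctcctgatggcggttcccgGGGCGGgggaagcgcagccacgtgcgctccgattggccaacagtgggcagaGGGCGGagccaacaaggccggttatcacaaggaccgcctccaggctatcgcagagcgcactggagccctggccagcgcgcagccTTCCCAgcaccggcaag
The Kcnj8 window (chr6:142571565-142571864, minus strand, 53.3% G and C) held 1 match, an RBPJ core. The Abcc9 window (chr6:142702225-142702524, minus strand, 65.7% G and C) held an RBPJ core, a GC box and a MEF2 box, and the Kcnj2 window (chr11:111065914-111066213, plus strand, 66.7% G and C) held 2 GC boxes and an RBPJ core. Of all 32851 windows, 35.7% held a GC box, 25.6% an RBPJ core, 13.6% a TATA box, 3.19% a MEF2 box and 1.63% a CArG box. A match is a run of letters and shows neither binding nor regulation.

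Libraries held 8706961 to 44861008 UMIs, and 37351 barcodes were kept. Cells were clustered without the members, without the other genes of the lists below and without the naming markers, so the classes were not drawn by these genes; each name means that the cluster resembled that type by its markers. All 9 pericyte markers were raised in the pericyte cluster and all 8 smooth muscle markers in the smooth muscle cluster. Pericytes numbered 827, smooth muscle cells 1233, arterial cells 3867, capillary cells 19225 and venous cells 2156, while 5216 other endothelial cells stayed unnamed. The endothelial classes depended on the random start of the clustering: with another seed, tried after the data were seen, 2122 cells were arterial, 17448 capillary, 2134 venous and 8760 unnamed, and 2092 of the arterial cells were in both runs. Among the 6 capillary clusters, 1 was led by the immediate-early genes Atf3, Fos and Fosb beside Olfm5 (4193 cells) and 1 by the interferon-response genes Ifit3 and Ifit2 (1094 cells). Library medians ran from 1117 to 4526.5 UMIs per pericyte, 1385 to 7508.5 per smooth muscle cell and 968.5 to 4773.0 per capillary cell. Pericyte barcodes carried endothelial RNA: by library, the median share of Cldn5, Flt1 and Ly6c1 in a pericyte was 5.05 to 53.4% of that in a capillary cell, against 0 to 1.99% in smooth muscle. Pairs of libraries shared 1 to 24 barcodes, at most 0.373% of the smaller one. Library, age, index type and Cell Ranger version all changed together between the ages and cannot be told apart. The labels do not tie libraries to separate animals, so p-values measure the spread between these libraries. Levels are counts per 1000000 UMIs (CPM) of the summed counts of a class in a library, so fewer cells of a kind and less RNA per cell cannot be told apart, and they are compared between classes and not between genes.

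Over all pericyte barcodes, pericytes differed from smooth muscle in every member that could be tested. The KATP genes Kcnj8 and Abcc9 were higher in pericytes, and Kcnk3, Ano1, Cacna1c, Cacna1h and Atp2a2 were lower. In the pericyte barcodes with little endothelial RNA, described below, only Kcnk3 and Atp2a2 stayed lower. There Ano1 was higher (log2 difference 0.93), and Cacna1c (0.17) and Cacna1h (-0.04) did not pass. Ano1 also turned direction without integration of the libraries (0.48). With edgeR's quasi-likelihood test, the library as a term and Benjamini-Hochberg adjustment over all genes, 7 of 7 tested members passed an adjusted p of 0.05, where 49.1% of all 9586 genes did: 2 were higher in pericytes and 5 lower, where 25.3% of all genes were higher and 23.8% lower. Against capillary endothelium, 7 of 8 members passed in pericytes (28.9% of all genes passed) and 8 of 8 in smooth muscle (65.1% of all genes). Of the smooth muscle calls 7 were higher (30.7% of all genes were), and Kcnj2 was lower. Kcnk3, Ano1, Cacna1c and Cacna1h averaged only 0.138 to 0.621 CPM in capillary cells and entered these tests through the mural class. A call of higher was nearly the only one open to them, so these counts are no measure of enrichment. The plot of levels by class shows all 8 members in all libraries.

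**Figure D1:**
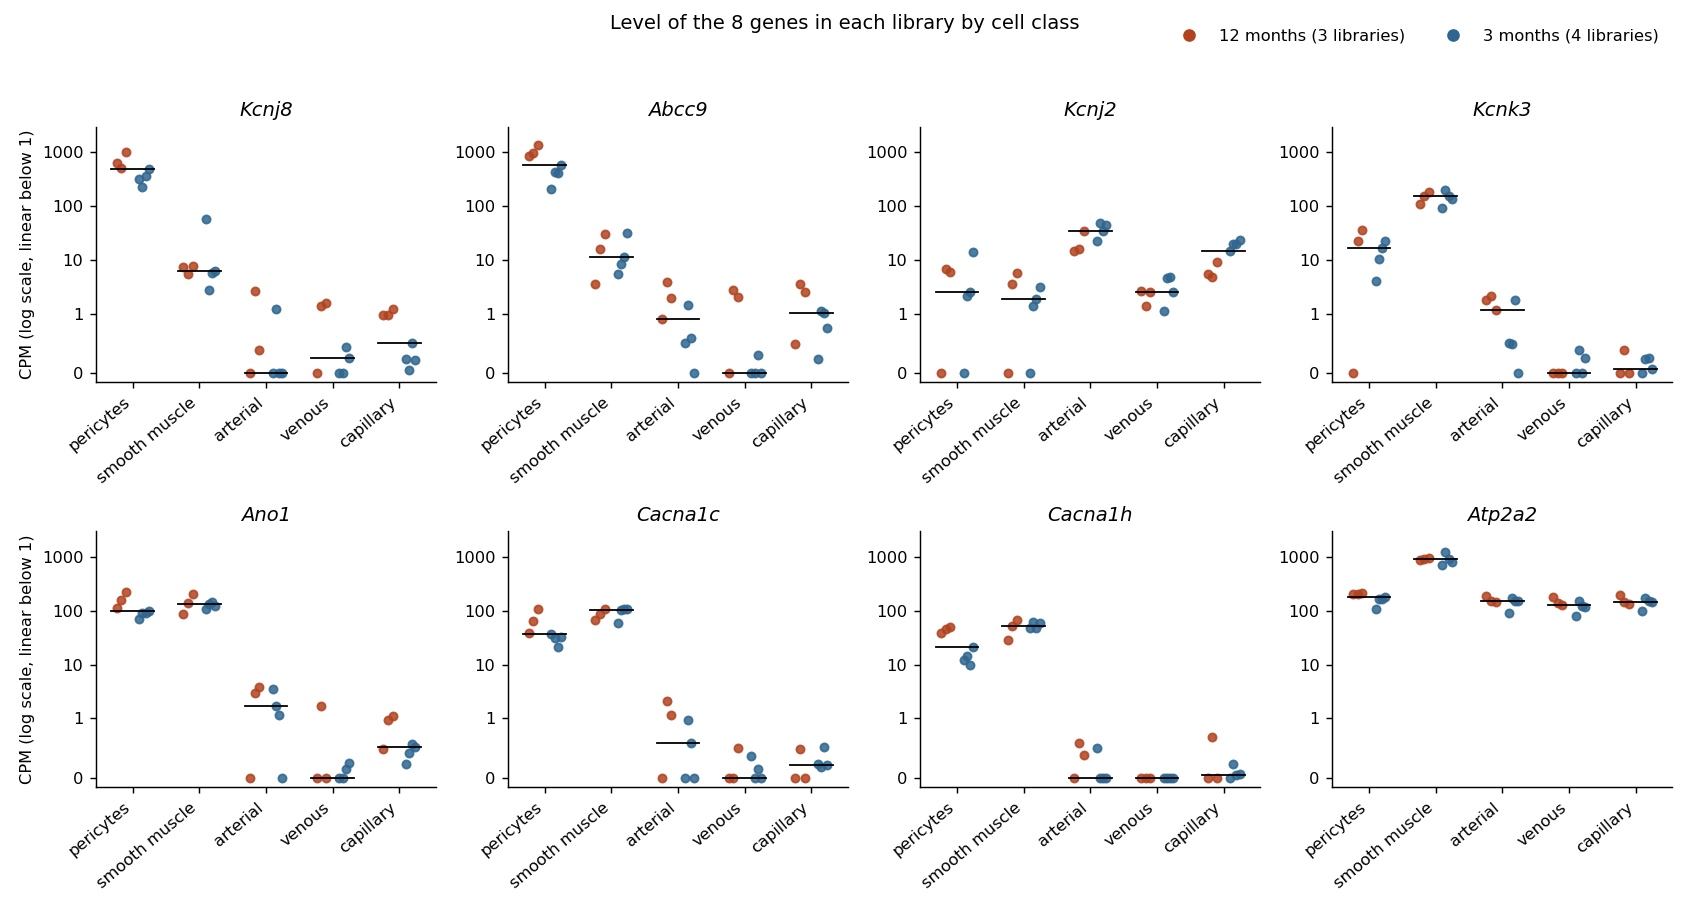
Levels of the 8 members in pericytes, smooth muscle, arterial, venous and capillary endothelium, with each point the summed counts of 1 library in CPM (log axis, linear below 1) and the line the median of 7 libraries. Kcnj8 and Abcc9 were highest in pericytes, Kcnk3 and Atp2a2 in smooth muscle, and Kcnj2 in arterial endothelium.

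Kcnj8, the KATP pore gene, was high in pericytes and low in smooth muscle and endothelium. In pericytes it had 630.2, 518 and 999.9 CPM in the 12 months libraries and 318, 229, 365 and 492 CPM in the 3 months libraries. In smooth muscle the values were 7.22, 5.35 and 7.63 CPM at 12 months and 57.2, 2.79, 5.58 and 6.22 CPM at 3 months. Every pericyte value lay above every smooth muscle value, and 1 smooth muscle library, 3 months replicate 1, stood far above the others of its class. The log2 difference between pericytes and smooth muscle was 5.12 ± 0.30 (SE), or 34.8-fold (adjusted p = 2.30e-14, edgeR). Without 3 months replicate 1 it was 6.13 ± 0.18, so that library alone moved the fold by more than 1.5 times. Capillary cells averaged 0.604 ± 0.457 CPM of Kcnj8 (SD, n = 7), and the pericyte value was 843-fold higher.

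Abcc9, the SUR2 gene, followed the same order. Pericytes had 859, 957 and 1357 CPM at 12 months and 204, 433, 403 and 581 CPM at 3 months. Smooth muscle had 3.61, 16.04 and 30.5 CPM at 12 months and 5.36, 8.37, 11.2 and 31.1 CPM at 3 months. The lowest pericyte library stood above the highest smooth muscle library. The difference was 5.04 ± 0.18 on the log2 scale, 32.9-fold (adjusted p = 6.13e-19, edgeR). Smooth muscle in turn stood above capillary endothelium, by 3.62 ± 0.36 for Abcc9 and by 4.34 ± 0.55 for Kcnj8 on the log2 scale. The libraries of these classes did not overlap. For Abcc9 they came close, with 3.612 CPM in the lowest smooth muscle and 3.605 CPM in the highest capillary library. Those smooth muscle values rested on 92 UMIs of Abcc9 and 60 of Kcnj8 in 1233 cells. Of the Kcnj8 UMIs, 32 came from 3 months replicate 1, and without that library the difference from capillary cells was 3.46. Pericyte markers were also counted in smooth muscle, among them pooled Vtn at 476 CPM and Atp13a5 at 37.1 CPM, against 7671 and 564 CPM in pericytes. The markers Cspg4 and Notch3 were higher in smooth muscle, at 399 and 534 CPM, against 353 and 351 CPM in pericytes. The part of pericyte RNA in the smooth muscle values was not tested.

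In single cells, transcripts of the pore and of its regulatory subunit were often found in the same pericyte. To compare cells of unlike depth, each was thinned to 1000 UMIs. Among the 372 pericytes with little endothelial RNA that were deep enough (60 were not), 71.2% held a Kcnj8 UMI, 74.7% held an Abcc9 UMI and 57.3% held both, where the product of the single shares is 53.2%. At full depth, 79.2% of these pericytes had Kcnj8 and 85.2% had Abcc9. In smooth muscle thinned the same way, 1.16% of 1204 cells had Kcnj8 and 2.24% had Abcc9. Microglia, immune cells taken here as the background for free RNA, gave 0 of 2205 cells for Kcnj8, which allows a share of up to 0.136%, and 0.272% for Abcc9. The median depth per library before thinning was 753 to 2678 UMIs in these pericytes and 1081.5 to 5089 in microglia; limits and intervals cover counting error only.

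Kcnk3, the background potassium channel gene, was higher in smooth muscle than in pericytes. Pericytes had 0, 22.6 and 34.98 CPM at 12 months and 4.08, 10.4, 16.3 and 22.7 CPM at 3 months, against 108, 153 and 185 CPM at 12 months and 91.2, 201, 154 and 134 CPM at 3 months in smooth muscle. Pericytes were lower in 7 of 7 libraries without overlap. The log2 difference was -3.25 ± 0.18, so Kcnk3 was 9.53-fold lower in pericytes (adjusted p = 5.05e-15, edgeR). It was still above capillary endothelium, by 6.46 ± 0.51 on the log2 scale, where 14 UMIs were counted in 19225 cells. After thinning, 5.38% of pericytes with little endothelial RNA and 12.7% of smooth muscle cells held a UMI, against 0.091% of microglia.

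Atp2a2, the SERCA2 gene, was found in every class and was highest in smooth muscle. Pericytes had 210.1, 202 and 211 CPM at 12 months and 110.1, 169, 169 and 181 CPM at 3 months. Smooth muscle had 892, 923 and 955 CPM at 12 months and 729.6, 1219.9, 931 and 817 CPM at 3 months. The libraries of the classes did not overlap: Atp2a2 was 6.41-fold lower in pericytes (log2 difference -2.68 ± 0.11; adjusted p = 1.78e-17, edgeR). Pericytes and capillary endothelium did not pass the test for Atp2a2 (0.22 ± 0.10, 95% interval 0.03 to 0.42, adjusted p = 0.0959). The difference passed without integration of the libraries (1.095; adjusted p = 1.62e-11), in the pericyte barcodes with little endothelial RNA (0.57; adjusted p = 0.00113) and without the capillary cluster led by Gm26917 and Ivns1abp (0.26; adjusted p = 0.0368, all edgeR). Arterial cells averaged 151 ± 29.96 CPM and capillary cells 151 ± 30.4 CPM (SD, n = 7), a log2 difference of 0.01 with a 95% interval of -0.09 to 0.10. Venous cells averaged 132 ± 30.7 CPM and were lower than capillary cells in 7 of 7 libraries, by a small amount (-0.18 ± 0.06; adjusted p = 0.0241, edgeR). That call was lost without 3 months replicate 2 (-0.14), 3 (-0.14) or 4 (-0.16), without integration (-0.12) and without the Gm26917 cluster (-0.14).

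Ano1, the chloride channel gene, was a transcript of both mural classes and nearly absent from endothelium. Pericytes had 115, 162 and 226 CPM at 12 months and 69.3, 91.7, 91.4 and 101 CPM at 3 months, and smooth muscle had 86.7, 141 and 208 CPM at 12 months and 109, 135, 148 and 123 CPM at 3 months. Pericytes were above smooth muscle in the 12 months libraries and below it in the 3 months libraries, with overlapping ranges. Over all libraries the log2 difference was -0.52 ± 0.13 (adjusted p = 0.00141, edgeR). The call was lost when more doublets were removed (-0.21; adjusted p = 0.215), and the direction turned without integration (0.48) and in the pericyte barcodes with little endothelial RNA. Capillary cells averaged 0.621 ± 0.313 CPM of Ano1 (SD, n = 7). The log2 difference from capillary cells was 7.47 ± 0.17 in pericytes and 7.96 ± 0.14 in smooth muscle.

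The calcium channel genes were also shared by both mural classes. Cacna1c, the L-type pore, had 38.2, 63.9 and 111 CPM at 12 months and 36.7, 31.3, 21.3 and 32.6 CPM at 3 months in pericytes, against 68.6, 89.1 and 109 CPM at 12 months and 59.0, 105, 107 and 108 CPM at 3 months in smooth muscle. Pericytes were lower in 6 of 7 libraries, by 1.35 ± 0.20 on the log2 scale (adjusted p = 2.38e-06, edgeR), and the ranges overlapped, with 2 pericyte libraries above the lowest smooth muscle library. Cacna1h, the T-type pore, had 38.2, 45.2 and 51.0 CPM at 12 months and 12.2, 14.6, 10.0 and 21.3 CPM at 3 months in pericytes, against 28.9, 53.5 and 66.7 CPM at 12 months and 48.3, 63.5, 48.4 and 60.1 CPM at 3 months in smooth muscle. It was lower in pericytes in 6 of 7 libraries, by 1.38 ± 0.22 on the log2 scale (adjusted p = 5.69e-06, edgeR). In capillary cells Cacna1c averaged 0.236 CPM and Cacna1h 0.151 CPM, and in venous cells Cacna1h had 0 UMIs in all 7 libraries.

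The pericyte levels depended on how much endothelial RNA the barcode held. Pericyte barcodes were divided at 25% of the capillary median share of Cldn5, Flt1 and Ly6c1, giving 432 barcodes with low and 395 with high endothelial RNA. Of the low barcodes, 237 held 0 UMIs of the 3 genes, and 53 barcodes of either side lay within 15 to 35% of the capillary median. High barcodes held 58.6 to 88.6% of each library's pericyte UMIs. In the 5 libraries with at least 20 barcodes of each kind, 7 of 7 tested members were higher in the low barcodes (31.5% of all 7260 genes passed in either direction and 14.1% were higher). Dividing barcodes by endothelial RNA in itself lowers the CPM, in high barcodes, of genes that endothelium hardly transcribes. The count and the p-values below follow at least in part from that split and are no separate support. The plot of low and high barcodes shows the libraries.

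**Figure D2:**
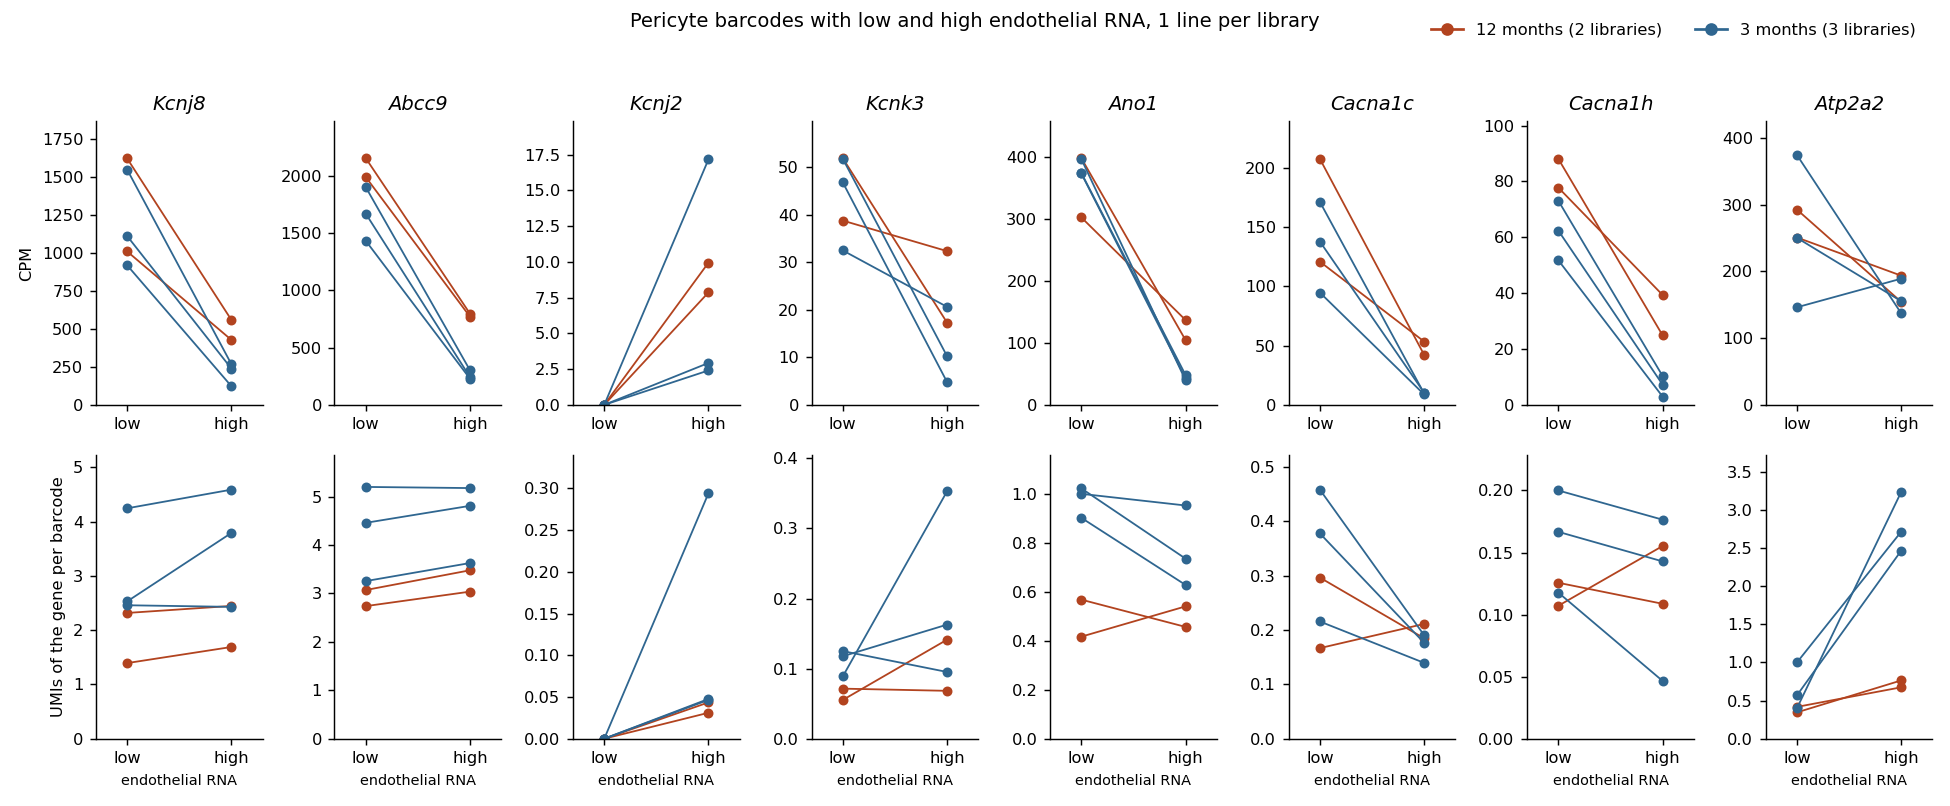
Levels of the 8 members in pericyte barcodes with low (left) and high (right) endothelial RNA, in CPM (upper row) and in UMIs of the gene per barcode (lower row), with a line joining the values of 1 library (5 libraries). In CPM, Kcnj8, Abcc9, Ano1, Cacna1c and Cacna1h fell along every line toward the high barcodes, and Kcnj2 was at 0 in all low barcodes; pooled per barcode, Kcnj8 had 2.32 UMIs in low and 2.36 UMIs in high barcodes.

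Kcnj8 had 1011 and 1624 CPM in the low barcodes of the 12 months libraries and 919.7, 1112 and 1550.3 CPM in those of the 3 months libraries. In the high barcodes it had 428 and 559.5 CPM at 12 months and 123, 239 and 268 CPM at 3 months. The low barcodes were higher in every library, by 2.02 ± 0.19 on the log2 scale (adjusted p = 4.83e-12, edgeR). Abcc9 had 1987 and 2152 CPM at 12 months and 1668, 1431 and 1899 CPM at 3 months in low barcodes, against 769 and 796 CPM at 12 months and 243, 228 and 302 CPM at 3 months in high barcodes. These ranges were also apart, with a log2 difference of 2.13 ± 0.19 (adjusted p = 1.42e-12, edgeR).

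Ano1 had 302 and 398 CPM at 12 months and 374, 397 and 373 CPM at 3 months in low barcodes, against 137 and 104 CPM at 12 months and 48.1, 39.5 and 42.9 CPM at 3 months in high barcodes. All low values lay above all high ones (2.35 ± 0.23; adjusted p = 1.82e-11, edgeR). Cacna1c averaged 147 ± 44.1 CPM in low and 24.9 ± 21.4 CPM in high barcodes (SD, n = 5), and Cacna1h averaged 70.6 ± 14.02 CPM in low and 16.9 ± 15.0 CPM in high barcodes, both higher in 5 of 5 libraries. Kcnk3 was higher in low barcodes in 5 of 5 libraries (1.21 ± 0.44; adjusted p = 0.0277, edgeR) and Atp2a2 in 4 of 5 (0.60 ± 0.20; adjusted p = 0.0172, edgeR). Both calls were lost without 3 months replicate 2 (1.02 for Kcnk3 and 0.41 for Atp2a2) or 3 months replicate 3 (0.93 and 0.56). The Kcnk3 call was also lost without 12 months replicate 2 (1.15), and the Atp2a2 call without 12 months replicate 3 (0.49).

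Counted per barcode and pooled over all libraries, Kcnj8, Abcc9 and Cacna1h were nearly as frequent in low as in high barcodes, Ano1 and Cacna1c were somewhat more frequent in low ones, and Kcnk3 and Atp2a2 were more frequent in high ones; these pooled values have no test. Kcnj8 had 2.32 UMIs per low barcode and 2.36 per high barcode, and Abcc9 had 3.21 per low and 3.29 per high barcode. Ano1 had 0.641 per low and 0.534 per high barcode, Cacna1c had 0.271 per low and 0.185 per high, and Cacna1h had 0.125 per low and 0.127 per high. All UMIs together came to 1717 per low and 7538 per high barcode. Atp2a2, which endothelium also transcribes, had 0.444 per low and 1.23 per high barcode, and Kcnk3 had 0.0718 per low and 0.114 per high barcode, the opposite of its order in CPM. With Cldn5, Flt1, Ly6c1 and the 200 genes highest in capillary cells left out of the library size, the log2 differences were 1.97 for Kcnj8, 2.08 for Abcc9 and 2.31 for Ano1. All other transcripts of endothelium stayed in that library size, and their part in these differences was not tested.

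Set against smooth muscle, the low barcodes gave another result for 3 members. Ano1 was higher in low-RNA pericytes than in smooth muscle, by 0.93 on the log2 scale (95% interval 0.64 to 1.23; adjusted p = 1.19e-08, edgeR). Cacna1c differed by 0.17 (95% interval -0.20 to 0.55) and Cacna1h by -0.04 (95% interval -0.52 to 0.45), and neither passed the test. Kcnk3 and Atp2a2 stayed lower in pericytes, by 2.28 and 2.23, and Kcnj8 and Abcc9 stayed higher, by 7.44 and 6.31.

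Kcnj2, the endothelial inward rectifier gene, was lower in mural cells than in capillaries, and among the endothelial classes it was highest in arterial and lowest in venous cells. In arterial cells it had 14.5, 15.8 and 34.4 CPM at 12 months and 21.95, 48.1, 34.3 and 44.3 CPM at 3 months. Venous cells had 2.66, 1.37 and 2.56 CPM at 12 months and 1.12, 4.60, 4.76 and 2.54 CPM at 3 months. Capillary cells had 5.39, 4.68 and 9.08 CPM at 12 months and 14.3, 19.6, 19.4 and 22.98 CPM at 3 months. Within each library the order was arterial, then capillary, then venous, while the ranges over libraries overlapped. Arterial cells were 2.24-fold above capillary cells (log2 difference 1.17 ± 0.12; adjusted p = 2.89e-07, edgeR) and venous cells 4.96-fold below (-2.31 ± 0.18; adjusted p = 1.30e-09, edgeR). Without integration of the libraries the arterial difference was 0.16 and did not pass (adjusted p = 0.341), and the venous difference was -3.24. Of the members, 2 of 4 tested passed between arterial and capillary cells (39.9% of all genes passed) and 2 of 3 between venous and capillary cells (40.5%). Beside Kcnj2, Ano1 was higher in arterial cells by 1.54 ± 0.44 (adjusted p = 0.00962, edgeR), from 38 arterial and 48 capillary UMIs and in 5 of 7 libraries. It had too few counts for a test when the clustering was started from another seed. The summed level of 8 smooth muscle markers was 31.9 to 636 CPM in the arterial and 11.9 to 96.4 CPM in the capillary libraries, and their part in the Ano1 difference was not tested. Abcc9 in venous cells did not pass (-1.08 ± 0.45; adjusted p = 0.0626), passed without 12 months replicate 2 (-1.60; adjusted p = 0.0403) and with the other seed (-1.15; adjusted p = 0.0476), and turned to 1.14 without integration (adjusted p = 0.0268, all edgeR).

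After thinning to 1000 UMIs, a Kcnj2 UMI was found in 2.62% of arterial, 1.78% of capillary and 0.386% of venous cells, and at full depth in 13.2% of arterial, 5.25% of capillary and 2.597% of venous cells. Microglia held Kcnj2 in 2.36% of thinned cells and 5.03% at full depth, at a level of 24.1 ± 5.36 CPM (SD, n = 7). Microglia were therefore no background for this gene, and smooth muscle, at 0.415% of thinned cells, was taken in their place. The venous share was not above it. Among all 13 endothelial clusters, the highest pooled level was 52.9 CPM in a capillary cluster led by Gm26917 and Ivns1abp. An unnamed cluster led by Unc5b, with Kcnj2 itself among its 10 leading genes, followed at 50.7 CPM, and an arterial cluster led by Gkn3 and Egfl8 at 36.1 CPM. The other arterial cluster, led by Fbln5, had 20.3 CPM, below a capillary cluster led by Apln and Kit at 33.4 CPM, so single clusters did not follow the order of the classes. The venous cluster, led by Ackr1, was lowest at 3.15 CPM.

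All Kcnj2 UMIs of pericytes lay in barcodes with high endothelial RNA. Pericytes had 0, 6.65 and 5.83 CPM at 12 months and 0, 2.08, 2.50 and 14.2 CPM at 3 months, 22 UMIs in all. Low barcodes held 0 of these UMIs among 741938, which allows up to 4.04 CPM, and high barcodes held 22, or 7.39 CPM. In 372 thinned low barcodes 0 held a Kcnj2 UMI, which allows a share of up to 0.806%. Over all barcodes Kcnj2 was lower in pericytes than in capillaries, by 1.35 ± 0.35 on the log2 scale and in 6 of 7 libraries (adjusted p = 0.00324, edgeR). The smallest difference among the alternatives that could be tested, -0.96, came without the capillary cluster led by Gm26917 and still passed (adjusted p = 0.0434, edgeR). Smooth muscle was below capillaries in 7 of 7 libraries (-2.47 ± 0.37; adjusted p = 4.51e-06, edgeR), from 14 UMIs. Between pericytes and smooth muscle Kcnj2 had too few counts for a test.

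Between the ages, pericytes at 12 months had higher levels of 5 members than pericytes at 3 months. These were Abcc9, Kcnj8, Ano1, Cacna1c and Cacna1h, of 7 members tested, where 1.52% of all 8333 genes were called higher and 2.15% in either direction. Abcc9 averaged 1058 ± 264 CPM at 12 months and 405 ± 155 CPM at 3 months (SD, n = 3 and 4), a log2 difference of 1.40 ± 0.28 (adjusted p = 0.00778, edgeR). Kcnj8 averaged 716 ± 252 CPM at 12 months and 351 ± 109.5 CPM at 3 months (1.04 ± 0.27; adjusted p = 0.0383, edgeR). The library values given above did not overlap between the ages for any of the 5. These 5 were called on the same values, and the share of all genes without overlap is not given here. Counted per barcode the order was the other way round: Kcnj8 had 1.67 ± 0.65 UMIs per pericyte at 12 months and 2.95 ± 1.09 at 3 months, and Abcc9 had 2.53 ± 0.94 at 12 months and 3.61 ± 1.77 at 3 months (SD, n = 3 and 4). The means of Ano1, Cacna1c and Cacna1h per barcode were also lower at 12 months. These per-barcode values have no test. Median depth per library was 1117 to 2771 UMIs per pericyte at 12 months and 3261 to 4526.5 at 3 months. The part of depth in the per-barcode values was not tested.

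Ano1 averaged 168 ± 55.9 CPM at 12 months and 88.3 ± 13.3 CPM at 3 months (1.05 ± 0.24; adjusted p = 0.0201, edgeR). Cacna1c averaged 70.9 ± 36.8 CPM at 12 months and 30.5 ± 6.54 CPM at 3 months (1.54 ± 0.30; adjusted p = 0.00778, edgeR), and Cacna1h averaged 44.8 ± 6.42 CPM at 12 months and 14.5 ± 4.86 CPM at 3 months (1.71 ± 0.34; adjusted p = 0.00778, edgeR). Kcnk3 (0.86 ± 0.41, adjusted p = 0.365) and Atp2a2 (0.39 ± 0.23, adjusted p = 0.51) did not pass the same test, although the Atp2a2 libraries of the ages did not overlap.

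These age calls moved with the endothelial RNA of the barcodes and with single libraries. In the low barcodes, with 2 libraries at 12 months and 3 at 3 months, 0 of 5 tested members passed with edgeR, where 30 of all 2418 genes did. There the log2 difference was 0.28 for Abcc9 (95% interval -0.14 to 0.71, adjusted p = 0.814), 0.12 for Kcnj8, -0.11 for Ano1 (95% interval -0.55 to 0.34, adjusted p = 0.977) and 0.42 for Cacna1c (95% interval -0.23 to 1.07, adjusted p = 0.832). The low-barcode libraries of the ages overlapped for Kcnj8, Ano1 and Cacna1c. They did not overlap for Abcc9, or for Cacna1h, which had 77.8 and 88.1 CPM at 12 months and 62.4, 51.7 and 73.1 CPM at 3 months and too few counts for a test. In the high barcodes, the median depth per library was 1592 to 3546 UMIs at 12 months and 7077 to 18463 UMIs at 3 months. The summed level of 9 pericyte markers in pericytes was 15544 to 26387 CPM at 12 months and 10225 to 13386 CPM at 3 months, and the summed endothelial markers came to 7635 to 11171 CPM at 12 months and 8820 to 12789 CPM at 3 months. Microglia markers in pericytes came to 63.9 to 325 CPM at 12 months and 35.4 to 85.1 CPM at 3 months, and their part was not tested. Over all barcodes, 0 members passed with at least 1000 genes per cell, without integration, without 12 months replicate 3 or without 3 months replicate 3, and without 12 months replicate 2, 2 passed. The number tested and the share of all genes called under these settings are not given, so a lower count can mean fewer calls over all genes. Without 3 months replicate 3 the differences stayed close to those above, at 1.40 for Abcc9 and 1.06 for Kcnj8, while without 12 months replicate 3 Kcnj8 was at 0.65 and Ano1 at 0.79. DESeq2 called 3 members, where it called 60 of all 8333 genes. The plot of pericytes by age shows both sets of barcodes.

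**Figure D3:**
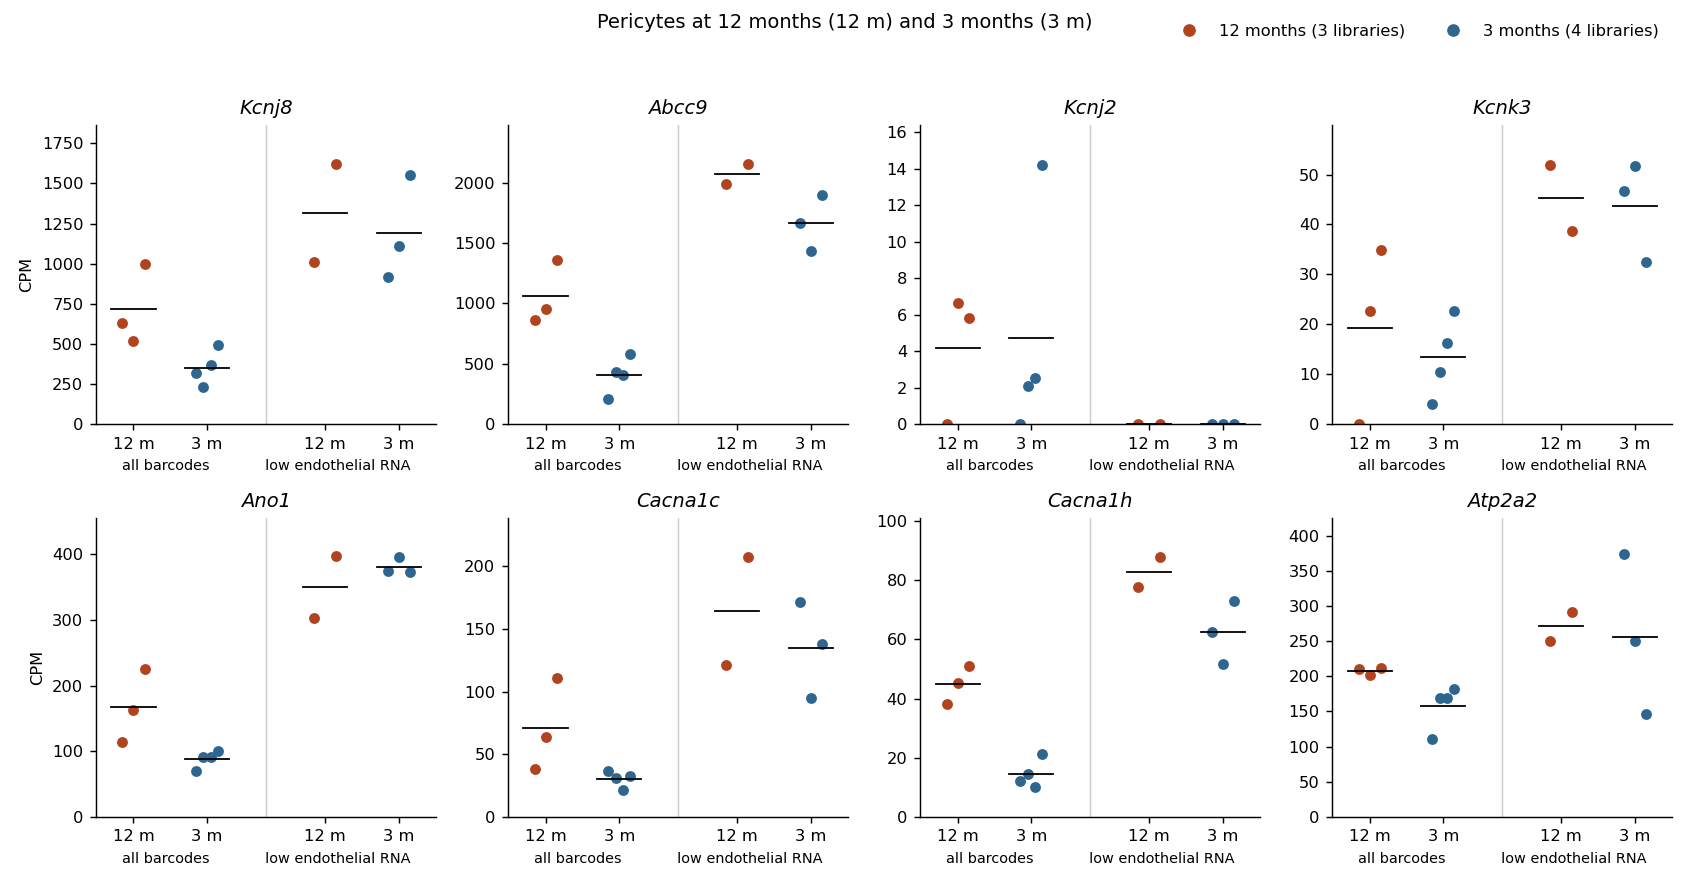
Levels of the 8 members in pericytes at 12 months (left of each pair) and 3 months (right), in CPM, with each point 1 library and lines for the mean. Over all pericyte barcodes (3 and 4 libraries) the ages did not overlap for Kcnj8, Abcc9, Ano1, Cacna1c, Cacna1h and Atp2a2. In barcodes with low endothelial RNA (2 and 3 libraries) the ages did not overlap for Abcc9 and Cacna1h. The share of all genes without overlap is not given here.

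In smooth muscle 0 of 6 tested members passed between the ages (0.143% of all genes passed; 594 genes had an unadjusted p under 0.05 with edgeR, and DESeq2 called 0 members). Kcnk3 averaged 149 ± 38.5 CPM at 12 months and 145 ± 45.6 CPM at 3 months (SD, n = 3 and 4), a log2 difference of 0.02 with a 95% interval of -0.47 to 0.50. The difference between the age effects of pericytes and smooth muscle was itself tested, and 4 of 7 members passed, all higher in pericytes (2.67% of all genes passed and 1.29% were higher): Kcnj8 by 1.93 ± 0.57 (adjusted p = 0.0419), Ano1 by 0.74 ± 0.22 (adjusted p = 0.0382), Cacna1c by 1.57 ± 0.30 (adjusted p = 2.49e-04) and Cacna1h by 1.66 ± 0.37 (adjusted p = 0.00221, all edgeR). For Abcc9 the difference was 0.96 (adjusted p = 0.167). With the low barcodes only, without integration, or with DESeq2, 0 members passed, and the share of all genes called in these settings is not given. The Ano1 call was kept in 2 of 16 alternatives, lost in 12 and turned in 2 (-0.01 without integration and -0.49 in low barcodes). The value for Kcnj8 fell to 0.54 without 3 months replicate 1, the library with the high smooth muscle level. Set against the age effect in capillaries, the pericyte age effect differed for 0 of 8 members (3.17% of all genes; 1513 genes under an unadjusted p of 0.05 with edgeR, and DESeq2 called 0 members).

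In capillary endothelium Kcnj2 was lower at 12 months. All 12 months libraries lay below all 3 months libraries, with means of 6.38 ± 2.36 CPM at 12 months and 19.1 ± 3.59 CPM at 3 months (SD, n = 3 and 4). The log2 difference was -1.42 ± 0.24 (adjusted p = 0.00564, edgeR), and Kcnj2 was the 1 member of 4 tested to pass, where 4.4% of all genes did and 1.16% were lower. Leaving out any library kept the call, with differences of -1.20 to -1.88, and so did the other seed (-1.53). The call was lost when libraries were not integrated (-1.27; adjusted p = 0.0569) or when all endothelial cells were taken (-1.10; adjusted p = 0.0803). Atp2a2 (0.25, adjusted p = 0.602), Kcnj8 (2.06 ± 0.58, adjusted p = 0.0725), a gene with 39 capillary UMIs, and Abcc9 (1.75 ± 0.47, adjusted p = 0.0614) did not pass. Abcc9 passed without 12 months replicate 1 (1.98; adjusted p = 0.0457, edgeR).

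The clusters that made up the capillary class differed between the ages. The cluster led by Gm26917 and Ivns1abp, which had the highest Kcnj2 level, held 3.43 to 8.44% of capillary cells in the 12 months libraries and 23.8 to 27.2% in the 3 months libraries. Without that cluster the age difference was -1.12 (adjusted p = 0.0307), and without the largest capillary cluster it was -1.59 (adjusted p = 0.00494, both edgeR). Cluster by cluster, the pooled Kcnj2 level was lower at 12 months in 12 of 12 endothelial clusters, and in 7 of them the libraries of the ages did not overlap. These counts leave out 1 cluster of 106 cells, led by the mural genes Vtn and Pdgfrb, which had 0 UMIs at 12 months; that allows up to 13.9 CPM, above its 4.06 CPM at 3 months. The clusters share their 7 libraries and are not replicates. The capillary clusters hold the same cells in which Kcnj2 was called, and the share of all genes with this pattern is not given here. The Gm26917 cluster itself had 22.5 CPM at 12 months and 56.1 CPM at 3 months, and the unnamed cluster led by Unc5b had 26.6 CPM at 12 months and 59.2 CPM at 3 months. The arterial cluster led by Gkn3 had 24.2 CPM at 12 months and 42.03 CPM at 3 months, with overlapping libraries. The capillary cluster led by Apln and Kit had 6.27 CPM at 12 months, from 1 UMI in 76 cells, and 37.6 CPM at 3 months. A cluster led by Plvap and Esm1, genes of fenestrated endothelium, had 0 Kcnj2 UMIs at 12 months, which allows up to 2.34 CPM, and 18.7 CPM at 3 months. In arterial cells as a class the difference was -0.70 ± 0.31 (adjusted p = 0.483, edgeR), and 0 of 3 members passed (0.771% of all genes; 1017 genes under an unadjusted p of 0.05, and DESeq2 called 0 members). In venous cells 0 of 1 passed (2.33% of all genes; 1266 genes under an unadjusted p of 0.05 with edgeR, and DESeq2 called 0 members). The plot of Kcnj2 by cluster shows these values.

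**Figure D4:**
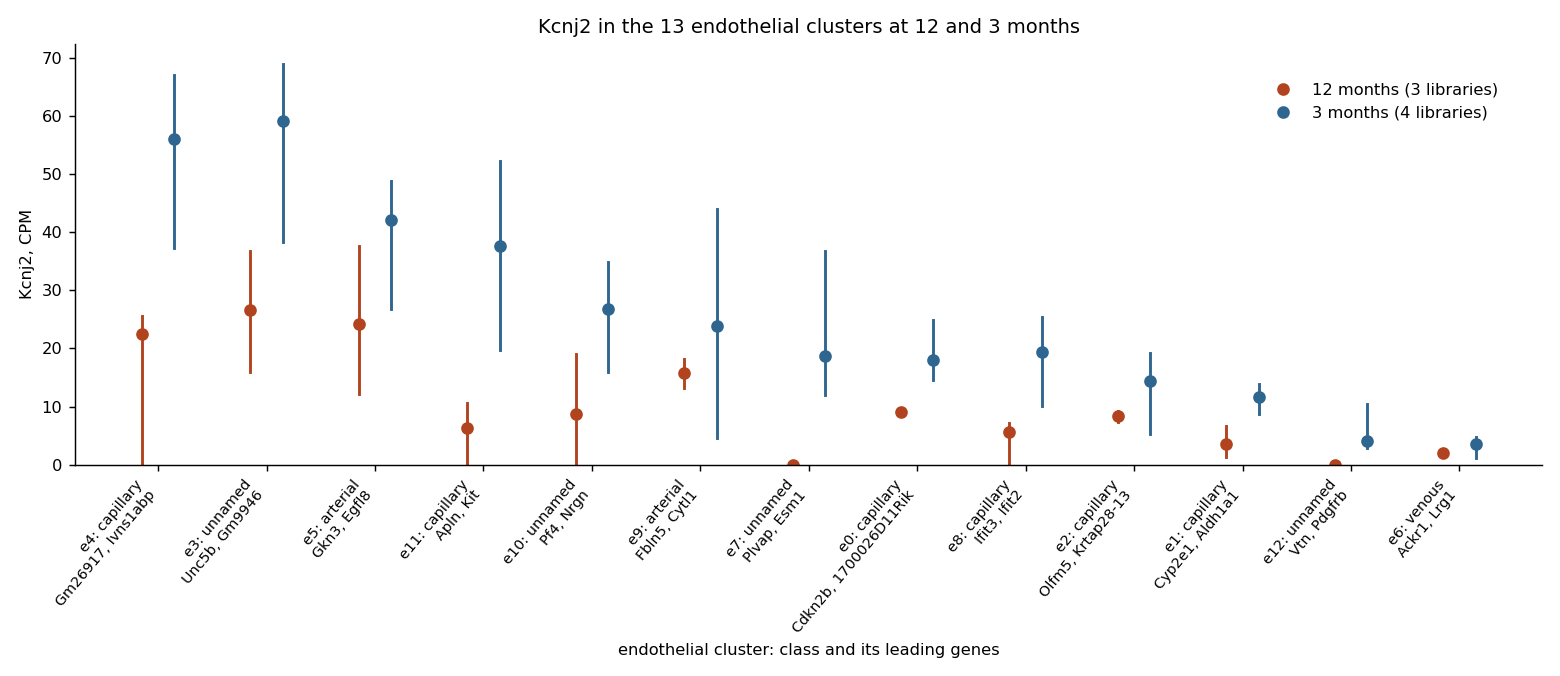
Level of Kcnj2 in each of the 13 endothelial clusters, in CPM, with points for the pooled level and bars from the lowest to the highest library, at 12 months (left) and 3 months (right). The pooled level was lower at 12 months in the 12 clusters where the counts allow a comparison (the cluster led by Vtn had 0 UMIs at 12 months), and the venous cluster was lowest with 3.15 CPM over both ages.

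The members were set beside 143 genes in 8 lists of channels, pumps and connexins. Without the members, 63 listed genes were tested between pericytes and smooth muscle, of which 23 were higher and 31 lower in pericytes. Of all genes, 25.3% were higher and 23.8% lower, and their median log2 difference was 0.03. All 8 tested genes of the voltage-gated and calcium-activated potassium channels were lower in pericytes, with a median of -4.39. In the age tests within a class, 8 genes of this list had enough counts in smooth muscle and 2 in pericytes. Genes that enter through smooth muscle alone can hardly be called higher in pericytes, so this count is no support. Kcnma1, the pore of the large-conductance calcium-activated channel, averaged 1.42 CPM in pericytes and 88.0 CPM in smooth muscle (-5.64 ± 0.35; adjusted p = 6.47e-14, edgeR). Kcnab1, a regulatory subunit of voltage-gated channels, averaged 2.20 CPM in pericytes and 222 CPM in smooth muscle. Of the inward rectifiers beyond the members, 1 was tested, and Kcnj12, the gene of Kir2.2, was lower in pericytes (17.1 CPM, against 49.8 CPM in smooth muscle; -1.50 ± 0.20).

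Beside Cacna1c and Cacna1h, 7 other calcium channel subunits were tested, of which 1 was higher and 6 lower in pericytes. Within a class, 6 of these other subunits had enough counts in smooth muscle and 3 in pericytes. The direction of those that entered through smooth muscle alone was largely fixed by entry. The T-type pore Cacna1g averaged 1.93 CPM in pericytes and 34.3 CPM in smooth muscle (-4.33 ± 0.33), and the auxiliary subunits Cacnb2 and Cacna2d1 were lower by 2.63 and 2.58 on the log2 scale. Around Atp2a2, 17 other genes of calcium stores and extrusion were tested, 8 higher and 9 lower in pericytes. Pln encodes phospholamban, the inhibitor of SERCA2, and averaged 3.74 CPM in pericytes and 1246 CPM in smooth muscle (-8.32 ± 0.25; adjusted p = 1.56e-20, edgeR). The ryanodine receptor gene Ryr2 averaged 0.405 CPM in pericytes and 74.3 CPM in smooth muscle.

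Among chloride and cation channel genes, several were higher in pericytes. Beside Ano1, 12 chloride channel genes were tested, of which 6 were higher and 1 lower in pericytes. They included Lrrc8b, a subunit of the volume-regulated anion channel, at 74.9 CPM in pericytes and 4.88 CPM in smooth muscle (3.62 ± 0.24). Of 15 TRP, Piezo and other cation channel genes, 7 were higher and 5 lower. Piezo1, the mechanosensitive channel gene, was higher in pericytes than in smooth muscle (1.59 ± 0.21) but lower in the low than in the high barcodes (-2.86). The connexin gene Gja1 was also higher in pericytes than in smooth muscle (2.67 ± 0.35) and lower in the low barcodes (-3.31). Over all lists, 25 of 43 genes beyond the members were higher and 7 lower in low barcodes, a count on which the split by endothelial RNA bears as well. Of all genes, 14.1% were higher and 31.5% passed in either direction.

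Against capillaries, 28 of 57 listed genes beyond the members were higher and 9 lower in pericytes, where 28.9% of all genes passed in either direction. In smooth muscle 36 of 68 were higher and 23 lower, where 65.1% of all genes passed. Listed genes nearly absent from capillaries entered these tests through the mural class, so a higher call was nearly the only one open to them. Casq2, a calcium buffer of the reticulum, averaged 169 CPM in pericytes and 0.455 CPM in capillaries. Along the endothelium, 24 of 59 were higher and 16 lower in arterial cells, where 39.9% of all genes passed in either direction. Among the higher was Atp2b4, the gene of a plasma membrane calcium pump (91.5 CPM in arterial and 2.87 CPM in capillary cells). Another was the cation channel gene Trpv4 (49.5 CPM in arterial and 10.7 CPM in capillary cells). In venous cells, 20 of 60 were higher and 19 lower, where 40.5% of all genes passed in either direction.

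Between the ages, 4 of 46 listed genes beyond the members were higher (1.52% of all genes were) and 0 lower in pericytes at 12 months, among them Casq2 (1.31, adjusted p = 0.00664), the cation channel gene Trpv2 (1.38, adjusted p = 0.0209) and the connexin gene Gja4 (1.03, adjusted p = 0.0448, all edgeR). In the low barcodes these 3 differences were 0.04, 0.28 and 0.31, and none passed (adjusted p = 0.99, 0.957 and 0.834, edgeR). In capillary cells 3 of 59 were higher and 2 lower, where 4.4% of all genes passed in either direction and 1.16% were lower. The connexin gene Gja1 was lower, with 14.5 CPM at 12 months and 46.4 CPM at 3 months (adjusted p = 7.16e-04, edgeR). In smooth muscle 0 of 51 passed (0.143% of all genes passed). In arterial cells 1 of 51 passed, Atp2a3, the gene of the SERCA3 pump, with 112.7 CPM at 12 months and 55.5 CPM at 3 months (adjusted p = 0.0333, edgeR). In venous cells 1 of 48 passed, Best1, a chloride channel gene. Of all genes, 0.771% passed in arterial and 2.33% in venous cells.

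The genes with profiles most like each member were found by Pearson's r of log2(CPM + 1) over 35 sums, 1 for each of the 5 classes in each of the 7 libraries, among 7712 genes. The sums share libraries and classes, so r is a description. For Kcnj8 these were G0s2 (0.970), Pla1a (0.961) and Ano4 (0.958), and for Abcc9 Plxdc2 (0.975), Mrc2 (0.972) and Slc30a10 (0.969). Kcnj8 and Abcc9 had an r of 0.964 with each other. Kcnj2 was most like Dync1h1 (0.837), the heavy chain of the motor protein dynein, the Notch ligand gene Dll4 (0.834) and Ankrd40 (0.823). Ano1 was most like Cspg4 (0.991), the gene of the mural surface protein NG2, and Atp2a2 was most like Ppp1r12a (0.984), a subunit of myosin phosphatase. The closest genes were Rasl12 (0.980) for Kcnk3, Plekhg3 (0.993) for Cacna1c and Trpv2 (0.991) for Cacna1h.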

How the data were processed

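Single-cell 3' gene expression libraries (10x Genomics v3.1 chemistry, per the labels) were deposited as matrices of raw UMI counts per gene and barcode; per the file headers the authors made these counts with Cell Ranger 4.0.0 (12 months) and 6.1.1 (3 months), and the submitters' processing notes name mm10 and Seurat. Whether intronic reads were counted, and by which strand, is not stated in the sources used here.

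Barcodes with at least 500 genes and at most 15% mitochondrial UMIs were kept, and doublets scored with scrublet were removed at 0.8% per 1000 barcodes (scanpy 1.11.5). Seurat 5.3.0 integrated the libraries (reciprocal PCA, 2000 variable features, 30 components) and clustered them at resolution 0.5; members, listed genes and naming markers were kept out of the features. Clusters were named from marker lists, endothelial cells after a further clustering, whose class sizes moved with the random seed. Counts were summed per class and library (at least 20 cells) and tested with edgeR 4.0.16 in R 4.3.3 (quasi-likelihood, TMM, filterByExpr, Benjamini-Hochberg over all genes tested), with library as a term between classes. Standard errors are the log2 difference over the root of F. Ages were compared without a block.

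Library totals of 8706961 to 44861008 UMIs and 827 pericytes limit the precision for rare transcripts; in data simulated for the pericyte age test on 8333 genes, 56% of 2-fold and 100% of 4-fold changes were recovered. Intervals for shares are exact binomial (95%), and a count of 0 allows up to 3 counts.

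The members and lists were chosen with earlier results of these data known. All 8 members are named; of listed genes, at most 4 per list and class comparison with at least 20 CPM in a class, an adjusted p under 0.05 and the largest differences, at most 2 per list by smallest p for the ages, and the 3 genes with the highest r for likeness; 1 listed gene that this rule names is not reported here. Alternatives were DESeq2 1.42.0, no count filter, at least 1000 genes, at most 10% mitochondrial UMIs, double doublet removal, thinned sums, resolution 1.0, no integration, low-endothelial-RNA pericytes only, another seed for the endothelial clustering (added after the data were seen), other thresholds for that split, each library left out and a replicate block.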

Additional observations from a re-analysis of the deposited data

Results flagged for a closer look

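In 39 groups of 4 libraries, 1 library stood far from the other 3 in 6 groups. For continuous values chance alone flags about 1 group in 20. That rate does not hold for counts near 0, so it is no measure for these 6 groups. The smooth muscle of 3 months replicate 1 had 57.22 CPM of Kcnj8, where the other 3 months libraries had 2.792 to 6.217 CPM, and 59.01 CPM of Cacna1c, where the others had 105.4 to 107.8 CPM. The summed pericyte markers in its smooth muscle came to 3762 CPM, against 3563 to 5111 CPM in the others. The other 4 rested on few UMIs. Arterial cells of 3 months replicate 2 had 1.209 CPM of Kcnj8 (5 UMIs) and those of 3 months replicate 1 had 0.4989 CPM of Cacna1h (1 UMI), where the other 3 months libraries had 0. In 3 months replicate 3, capillary cells had 0.5143 CPM of Cacna1c (10 UMIs), where the others had 0.1839 to 0.238 CPM, and venous cells had 0.2976 CPM of Abcc9 (2 UMIs), where the others had 0.

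The age difference (12 months over 3 months) differed between pericytes and smooth muscle for 4 members by a test of that difference in edgeR. The log2 values were 1.932 for Kcnj8 (adjusted p = 0.0419), 0.744 for Ano1 (adjusted p = 0.0382), 1.568 for Cacna1c (adjusted p = 2.49e-04) and 1.659 for Cacna1h (adjusted p = 0.00221). None of the 4 passed when only pericyte barcodes with low endothelial RNA were used. The part of library, index type and Cell Ranger version cannot be told apart from that of age.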

How the results depend on the processing

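Counts of members past the threshold kept within 1.5 times their reported value in 190 cases over all comparisons and alternatives and moved in 37; of values for single genes, 3128 kept direction and call, 191 lost the call, 15 gained it and 10 turned direction. The cause was not tested except where fewer UMIs or libraries entered. For most counts of members under the alternatives, here and above, the number tested and the share of all genes called are not given. Both can change with the setting, so a lower count can mean a lost call or a member left untested.

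With sums thinned to the smallest, which leaves fewer genes to test, 3 members passed between pericytes and smooth muscle, 2 between pericytes and capillaries, 5 between smooth muscle and capillaries, 1 between arterial cells and capillaries, 4 between low and high barcodes, 1 between ages in pericytes and 0 for the age effect in pericytes against smooth muscle. For ages in pericytes, 3 passed with DESeq2, 0 with at least 1000 genes, 3 with double doublet removal, 0 without integration and 0 in low-endothelial-RNA barcodes. For the age effect in pericytes against smooth muscle, 0 passed with DESeq2, 1 with at least 1000 genes, 2 with at most 10% mitochondrial UMIs, 0 without integration and 0 in low barcodes; against capillaries, 1 passed in low barcodes. For ages in capillaries, 2 passed with DESeq2, 3 without the count filter, 2 with at least 1000 genes and 0 without integration, and for ages in venous cells 1 without the filter. Between arterial cells and capillaries 1 passed without integration. Chosen after seeing the data were the capillary class without its largest cluster or without the cluster led by Gm26917 (1 passed between venous cells and capillaries), all endothelial cells in place of capillaries (0 passed between the ages) and another random seed for the endothelial clustering. With that seed 1 member passed between arterial cells and capillaries, 3 between venous cells and capillaries and 1 between ages in capillaries.

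Leaving out 1 library gave 2 to 3 members between arterial cells and capillaries, 1 to 3 between venous cells and capillaries, 0 to 5 between ages in pericytes, 1 to 2 between ages in capillaries, 1 to 4 for the age effect in pericytes against smooth muscle and 0 against capillaries. For low against high barcodes, with 5 to 7 members, it was run only for the 5 libraries in that test.

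Directions turned for Ano1 in pericytes against smooth muscle (0.478 without integration, 0.119 thinned, 0.934 in low barcodes), Cacna1c in the same comparison (0.174 in low barcodes), Gja1 in arterial cells against capillaries (-0.018 without integration), Abcc9 in venous cells against capillaries (1.138 without integration), and Ano1 between ages in pericytes (-0.106 in low barcodes). For the age effect in pericytes against smooth muscle, Ano1 turned to -0.012 without integration and -0.492 in low barcodes, and Kcnj8 to -0.313 in low barcodes.

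With the replicate number as a block, 5 members passed between ages in pericytes, 0 in smooth muscle, 0 in arterial, 1 in capillary and 0 in venous cells, and Kcnj2 in capillaries was at -1.468. Same-numbered libraries deviated together with r of -0.060 to 0.206, so the numbers do not pair them.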

Other observations

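The fibroblast cluster also held KATP transcripts. In the 5 libraries with at least 20 fibroblasts, Kcnj8 averaged 447 ± 151 CPM, Abcc9 301 ± 129 CPM, Ano1 94.9 ± 42.9 CPM and Cacna1c 84.4 ± 29.8 CPM (SD, n = 5), while Cacna1h averaged 1.43 CPM. Mural markers were high in the same barcodes: the 9 pericyte markers summed to 7917 to 17354 CPM by library, and pooled Rgs5 was at 7091 CPM and Pdgfrb at 1070 CPM, against 4214 and 988 CPM in pericytes. Their part in these levels was not tested. After thinning, 9.6% of fibroblasts held both Kcnj8 and Abcc9, where the product of the single shares is 7.29%.

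An unnamed cluster of 291 cells, led by Rgs5, Olfr558, Ano1 and Casq2 and with a median of 7819 UMIs per cell, held members of both mural classes. Its summed endothelial markers stood at 89.4% of their level over all cells, against 73.4% in pericytes, and their part in the values was not tested. In the 4 libraries with at least 20 of these cells, Ano1 averaged 157 ± 58.5 CPM, Atp2a2 430.0 ± 13.4 CPM, Kcnk3 64.4 ± 16.9 CPM, Abcc9 52.6 ± 16.6 CPM, Kcnj8 22.0 ± 4.38 CPM and Kcnj2 23.1 ± 15.7 CPM (SD, n = 4).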
